A study of Homo sapiens with 3 samples.

Results

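BRG1, the ATPase encoded by SMARCA4, was mapped by chromatin immunoprecipitation and sequencing (ChIP-seq) in 12Z cells of wild-type genotype. 12Z is an established human cell line of endometriotic epithelium. The series comprised 2 libraries made with the anti-BRG1 antibody ab110641, called replicates 1 and 2, and 1 input library, made from chromatin without immunoprecipitation. All were from the same untreated line, and the labels do not say whether the replicates were separate cultures, so a difference between them may be technical. The results below concern the broad peaks on chromosome arms that were called in replicate 1 and not in replicate 2. A replicate 1 peak on chromosomes 1 to 22 was taken when it shared no base with any replicate 2 peak and its midpoint lay outside 18 windows drawn around centromeres and acrocentric short arms. No window is drawn on chromosomes 3, 6, 8 and 11, so peaks near the centromeres of these 4 remain among the members and arm peaks. The rule gave 7681 peaks, which were 44.1% of the 17399 peaks of the replicate 1 list and 67.4% of its 11390 arm peaks. The other 3709 arm peaks of replicate 1 overlapped a replicate 2 peak and are called peaks found in both. Replicate 2 held 10157 peaks, of which 5098 lay on the arms, and 1298 of those (25.5%) overlapped no replicate 1 peak. The members were selected on the peak calls of both libraries, so their fold, p-value, q-value and width are given as descriptions with no test.

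BRG1 is a catalytic subunit of SWI/SNF, a complex that uses ATP to slide or evict nucleosomes and so changes which DNA is open to transcription factors. In epithelial cells SWI/SNF is found both at promoters and at distal enhancers, the latter often with factors of the AP-1 and TEAD families. TEAD factors carry the output of the Hippo pathway through the coactivators YAP and TAZ, and SMAD factors carry that of TGF-beta.

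The promoters below are sequences that replicate 1 only peaks covered in whole or in part. They were taken from genes named in the results whose peak overlapped the bases upstream of the outermost start, and they range from CpG-rich to CpG-poor. Each is the 250 bases upstream of the start from RefSeq, build GRCh38.p14, on the strand of the gene. Capitals mark matches on either strand to short motifs, and adjoining or overlapping matches form a single run of capitals. The AP-1 motif was searched as TGANTCA and that of TEAD factors as GGAATG. The NF-Y motif was searched as CCAAT and that of SP and KLF factors as GGGCGG. The ETS motif was searched as CCGGAA and the TATA box as TATAAA. A match describes letters and not a bound site.
TWIST2: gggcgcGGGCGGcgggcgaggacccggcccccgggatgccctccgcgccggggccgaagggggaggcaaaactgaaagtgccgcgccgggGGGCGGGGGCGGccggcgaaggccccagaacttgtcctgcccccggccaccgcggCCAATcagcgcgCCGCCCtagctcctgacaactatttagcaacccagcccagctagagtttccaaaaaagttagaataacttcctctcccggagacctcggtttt
SMURF2: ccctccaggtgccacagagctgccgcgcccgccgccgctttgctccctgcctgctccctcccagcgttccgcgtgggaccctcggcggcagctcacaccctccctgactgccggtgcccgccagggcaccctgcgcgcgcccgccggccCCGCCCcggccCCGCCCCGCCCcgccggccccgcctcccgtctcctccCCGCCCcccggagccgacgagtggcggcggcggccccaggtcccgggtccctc
TNFRSF1A: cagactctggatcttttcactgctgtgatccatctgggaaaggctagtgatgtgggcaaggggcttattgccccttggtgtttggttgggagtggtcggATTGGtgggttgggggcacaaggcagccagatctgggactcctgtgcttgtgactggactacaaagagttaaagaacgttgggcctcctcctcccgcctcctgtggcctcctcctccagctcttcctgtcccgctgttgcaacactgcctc
ITGA5: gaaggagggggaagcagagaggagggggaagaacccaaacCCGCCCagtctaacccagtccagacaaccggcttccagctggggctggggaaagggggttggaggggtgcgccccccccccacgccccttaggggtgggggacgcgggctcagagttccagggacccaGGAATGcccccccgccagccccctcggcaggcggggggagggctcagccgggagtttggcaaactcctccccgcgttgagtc
ANKRD1: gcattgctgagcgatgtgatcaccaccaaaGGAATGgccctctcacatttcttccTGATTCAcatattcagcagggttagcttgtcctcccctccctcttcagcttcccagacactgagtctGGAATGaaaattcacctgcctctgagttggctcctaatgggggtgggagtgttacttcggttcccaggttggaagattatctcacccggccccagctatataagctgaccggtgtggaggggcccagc

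TWIST2 encodes a mesenchymal transcription factor, and its window at chr2:238847835-238848084 on the plus strand lay wholly inside a replicate 1 only peak of 3.63-fold enrichment. The window held 26 CpG dinucleotides, 4 SP and KLF matches and 1 NF-Y match. SMURF2 encodes a ubiquitin ligase that acts on TGF-beta receptors and SMAD proteins. Its window at chr17:64662308-64662557 on the minus strand held 33 CpG dinucleotides and 4 SP and KLF matches, and 247 of its bases lay inside a peak of 3.69-fold. The window of TNFRSF1A, a receptor of tumour necrosis factor, at chr12:6342077-6342326 on the minus strand, held 4 CpG dinucleotides and 1 NF-Y match. A peak of 3.05-fold covered 198 of its bases. ITGA5 encodes the alpha chain of the fibronectin receptor. Its window at chr12:54419267-54419516 on the minus strand held 1 TEAD and 1 SP and KLF match and contained the whole 123 bp of a peak of 3.98-fold. The TEAD match lay inside that peak and the SP and KLF match outside it. The window of ANKRD1, a well known YAP target, at chr10:90921088-90921337 on the minus strand, held 2 TEAD matches and 1 AP-1 match. Of its bases, the first 36 printed lay inside a peak of 4.01-fold, which extended upstream. They hold 1 TEAD match, and the AP-1 match and the other TEAD match lay outside the peak.

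The replicate 1 only peaks were weaker and narrower than those found in both. Their median fold enrichment over background was 3.57 (lower and upper quartile 3.41 and 3.80), against 3.83 in peaks found in both (3.59 and 4.14). The median −log10 p was 4.97 against 5.73, and the median −log10 q was 1.84 against 2.43. Of the members, 624 (8.12%) had a −log10 q of at least 3 and 46 of at least 5. Of the peaks found in both, 1009 (27.2%) and 116 did. The members were 310 bp wide at the median and the peaks found in both 555 bp. Peaks seen in replicate 2 only resembled them, with a median fold of 3.71, a median −log10 q of 1.84 and a median width of 251 bp. Exactly the same pair of values, a fold of 3.36 with a −log10 p of 4.37, was given for 408 members (5.31%) and for 28 peaks found in both (0.755%).

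When all replicate 1 arm peaks were ordered by −log10 p and divided into 5 equal groups of 2278, the share without a replicate 2 peak was 90.1% in the lowest group. It was 78.8%, 70.0% and 57.6% in the next 3 and 40.7% in the highest. Even the highest group held 928 members. The strongest members were often very narrow: of the 100 with the highest −log10 p, 52 were 150 bp wide or less. Among the 100 strongest peaks found in both, 18 were that narrow. Over all members 1149 were that narrow, against 191 of the peaks found in both (5.15%) and 269 of the replicate 2 only peaks (20.7%).

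**Figure D1:**
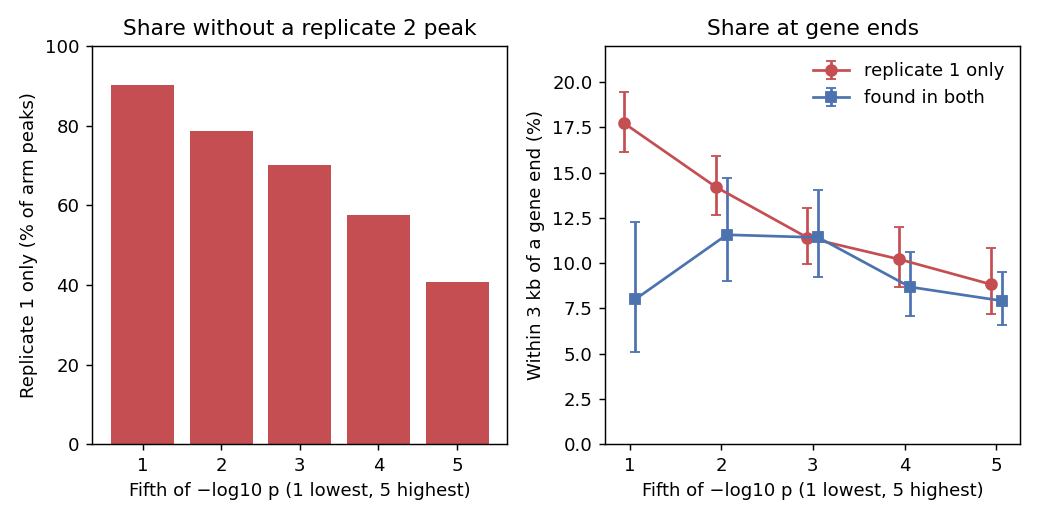
Left, share of replicate 1 arm peaks without a replicate 2 overlap (%) in 5 equal groups of −log10 p, falling from 90.1% in the lowest to 40.7% in the highest. Right, share of peaks within 3 kb of a gene end (%) in the same groups, with Wilson 95% intervals as bars. The replicate 1 only share falls from 17.7% to 8.84%, and the intervals of both kinds of peak are apart only in the lowest group.

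Members lay at widely differing distances from replicate 2 peaks. The gap to the nearest one was 59.5 kb at the median, with quartiles of 9.51 and 265 kb. Within 1 kb lay 583 members (7.59%), within 10 kb 1956 (25.5%), within 100 kb 4520 (58.8%), and beyond 1 Mb 522. These gaps were not set against those of randomly placed peaks. Just inside the rule, 38 members lay within 50 bp of a replicate 2 peak, with a median fold of 3.63, −log10 p of 5.18 and width of 368 bp. Just outside it, 135 arm peaks overlapped a replicate 2 peak by 1 to 50 bp, with 3.55, 5.04 and 362 bp. In the authors' overlap list of 6343 peaks, a peak overlapped 479 members (6.24%) and 99.4% of the peaks found in both.

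**Figure D2:**
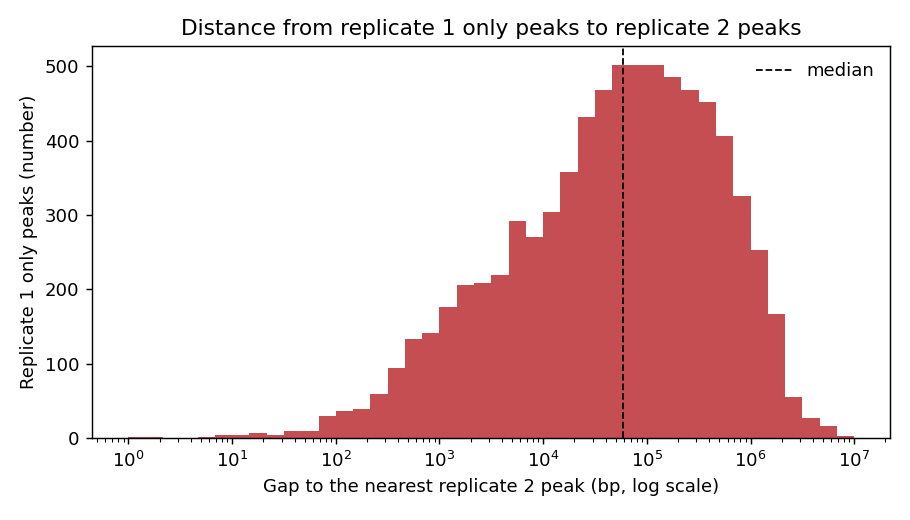
Number of replicate 1 only peaks by the gap to the nearest replicate 2 peak (bp, log axis; the dashed line is the median). The counts rise up to about the median of 59.5 kb, and 583 of the 7681 lie within 1 kb.

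The members were present on every autosome. The share of arm peaks that were replicate 1 only ran from 54.1% on chromosome 19 (98 of 181; Wilson 95% interval 46.9 to 61.2%) to 79.4% on chromosome 13 (154 of 194; 73.1 to 84.5%). Their density was lowest on chromosome 16, at 1.16 per Mb, and highest on chromosome 15, at 5.28 per Mb. Chromosome 15 was also the densest for peaks found in both, at 2.88 per Mb.

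**Figure D3:**
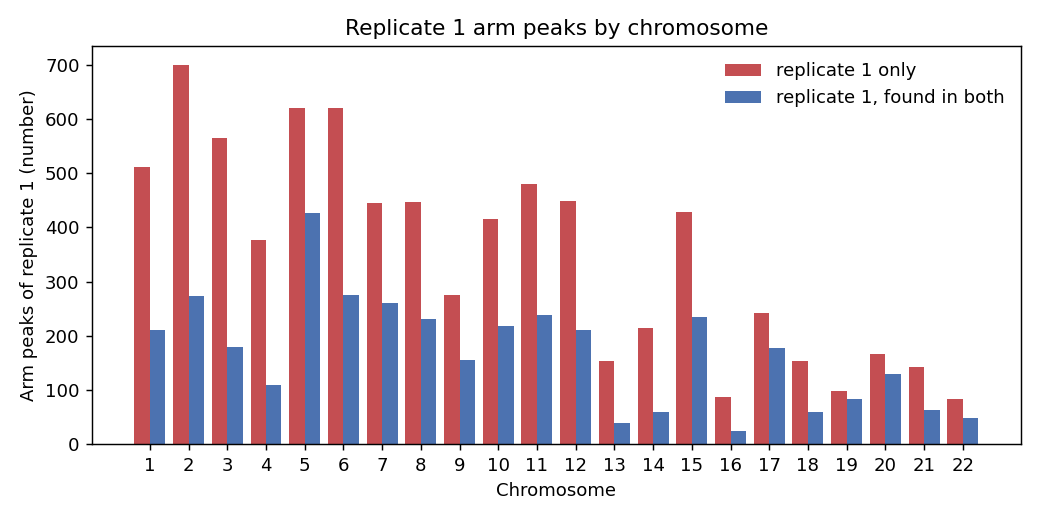
Number of replicate 1 arm peaks on each autosome, split into replicate 1 only and found in both. Replicate 1 only peaks outnumber the others on all 22, most evenly on chromosome 19 (98 against 83).

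Position relative to genes was not used to choose the members, so it was compared between classes. A peak was placed at a gene end when its midpoint lay within 3 kb of either end of a protein-coding gene, and otherwise in a gene body when it lay inside one. Of the members, 1017 (13.2%) were at gene ends, 3226 (42.0%) in gene bodies, 2014 (26.2%) within 100 kb of a gene and 1424 (18.5%) farther away. Gene ends held a larger share of members than of peaks found in both, 13.2% against 9.25% (343 of 3709). The difference was 3.99 percentage points (95% interval 2.77 to 5.17; odds ratio 1.50; Fisher's exact test, two-sided, adjusted p = 2.6e-09 over 6 comparisons). Among the stronger peaks of each list, those above its median −log10 p, the shares were 9.93% and 8.48%, and the difference did not pass the test (odds ratio 1.19; Fisher's exact test, adjusted p = 0.213). Fisher's test takes peaks as independent and compares the lists of single libraries, so it carries no error between replicates.

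The share at gene ends moved with peak strength. It was 17.7% in the members of the lowest −log10 p group (364 of 2053) and 8.84% in the highest (82 of 928). Peaks found in both had 8.0% (18 of 225) and 7.93% (107 of 1350) there. Within 10 strata of −log10 p, chosen after seeing the data, the odds ratio was 1.25 and still passed the Mantel-Haenszel test. The members at gene ends had a median fold of 3.46 and those in gene bodies 3.60.

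Gene bodies held 42.0% of members and 42.8% of peaks found in both (difference −0.842 points, interval −2.78 to 1.09; Fisher's exact test, adjusted p = 0.474). Positions over 100 kb from a gene held 18.5% of each (difference 0.0437 points, interval −1.50 to 1.55; Fisher's exact test, adjusted p = 0.979). Against the replicate 2 only peaks, members lay in gene bodies more often, 42.0% against 37.5% (odds ratio 1.21; Fisher's exact test, adjusted p = 0.00764). That call was lost when neighbouring peaks were joined, when 50% of both peaks had to overlap and among the stronger peaks (odds ratio 1.12, 1.05 and 1.16; Fisher's exact test, adjusted p = 0.148, 0.336 and 0.490). At gene ends 13.2% of members stood against 15.4% of replicate 2 only peaks (difference −2.17 points; Fisher's exact test, adjusted p = 0.0757). Over 100 kb from genes 18.5% stood against 20.9% (difference −2.34 points; Fisher's exact test, adjusted p = 0.0757). Neither difference passed the test.

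Members lay close to transcription starts more often than peaks found in both and less often than replicate 2 only peaks. Starts with their strand came from the RefSeq promoter table (GRCh38.p14), which matched 15100 of 19122 protein-coding genes and held none on chromosome 8. Of 7234 members on the other chromosomes, 524 (7.24%; interval 6.67 to 7.86%) lay within 1 kb of a start. The peaks found in both had 108 of 3478 there (3.11%; 2.58 to 3.74%) and the replicate 2 only peaks 123 of 1220 (10.1%; 8.52 to 11.9%). The odds ratio against peaks found in both was 2.44 in place of 1.50 at gene ends, and that against replicate 2 only peaks was 0.70. Both passed the test (Fisher's exact test, adjusted p = 2.39e-18 and 0.00264) and were alternatives chosen after seeing the data. Neither was compared within groups of −log10 p, so their dependence on peak strength was not tested. Of the 524, 243 lay upstream (46.4%; 42.1 to 50.7%), against 54.6% of the peaks found in both and 35.0% of replicate 2 only peaks.

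**Figure D4:**
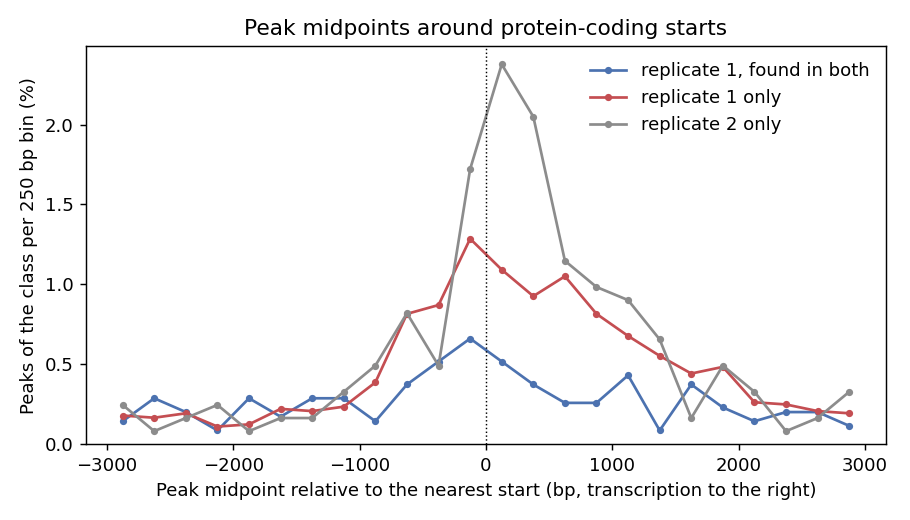
Share of the peaks of each class (%) by the position of the midpoint relative to the nearest protein-coding start (bp, 250 bp bins, transcription to the right). Within 1 kb lie 7.24% of replicate 1 only peaks, 3.11% of peaks found in both and 10.1% of replicate 2 only peaks.

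The promoters next to members were moderately rich in GC. Promoters were counted when a midpoint lay within 1 kb of either edge of their entry in the table, a wider reach than 1 kb from the start. Members marked the promoters of 548 genes, peaks found in both those of 129 and replicate 2 only peaks those of 138. Over the 250 upstream bases the median GC content was 65.2% beside members, 64.2% beside peaks found in both and 67.2% beside replicate 2 only peaks, against 62.0% over all 20963 promoter entries on the arms. The median number of CpG dinucleotides was 20, 17.5 and 24, against 17. The AP-1 letters TGANTCA were present for 8.94% of the member genes (49 of 548; interval 6.83 to 11.6%) and for 7.04% of all 14949 genes. Beside peaks found in both they were present for 22.5% (29 of 129; 16.1 to 30.4%). The TEAD letters GGAATG were present for 14.6%, 13.4% and 20.9% in the same order, and the SP and KLF letters GGGCGG for 69.3%, 62.5% and 60.5%. The NF-Y letters were present for 37.2% of member genes against 40.0% of all genes, the ETS letters for 21.2% against 23.3% and the TATA box letters for 8.76% against 11.9%. The promoter windows of ITGA5 and ANKRD1 shown above are 2 of those with a TEAD match. That of ANKRD1 holds both TEAD and AP-1 letters, the AP-1 letters outside its peak. No test was run on these shares.

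Of 18903 protein-coding genes on the arms, 1030 (5.45%) had a replicate 1 only peak at a gene end, and 362 (1.92%) had a peak found in both there. The number with a member was 299 among the stronger peaks and 554 with windows of 1 kb. Both kinds of peak occurred at the ends of 74 genes, which were 7.18% of the 1030 and 20.4% of the 362. The domain of a gene was its body and the positions nearest to it up to 100 kb. A peak at the end of a gene that lay in or nearer to another gene counted only for the domain of that other gene. The gene-end members of BAX, HOXA9 and HOXA10, for example, lay outside the domains of these genes. A member lay in the domain of 3300 genes (17.5%), or 1718 among the stronger peaks, and a peak found in both in that of 1834 (9.7%), with 1189 genes in common (36.0% and 64.8%). Of the 1030 genes, 714 (69.3%) had no peak found in both in their domain, though such a peak may lie at their ends in or nearer to another gene. The lists below describe these genes by role. They were written with earlier results of these data known, so their counts are descriptions. A single peak can count for neighbouring genes, and a gene can stand in several lists. Domain counts also follow length: the median domain was 55.1 kb over all genes and 123 kb in the YAP/TEAD list.

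**Figure D5:**
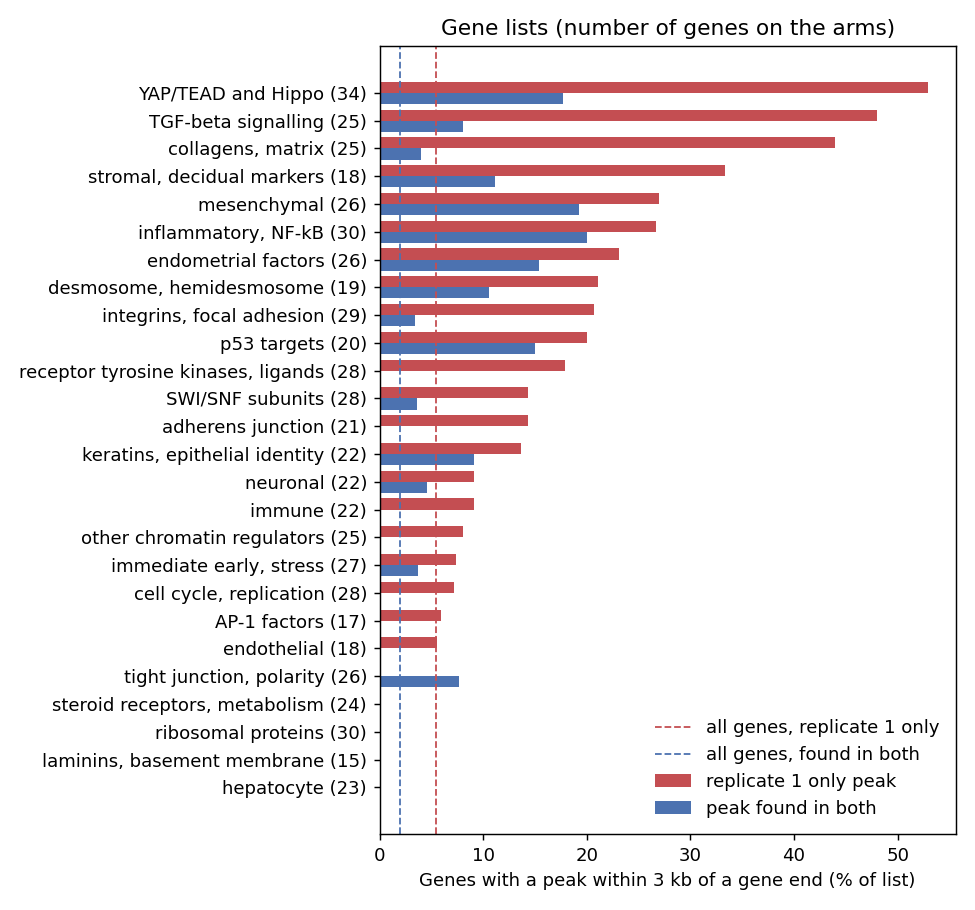
Percent of the genes of each list with a peak within 3 kb of a gene end, for replicate 1 only peaks and for peaks found in both (list sizes in brackets; dashed lines give all genes on the arms, 5.45% and 1.92%). The YAP/TEAD, TGF-beta and collagen lists hold the highest replicate 1 only shares, and the tight junction, steroid, laminin, ribosomal and hepatocyte lists have no gene with such a peak.

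In the YAP/TEAD list, of Hippo pathway components and targets, 18 of 34 genes had a replicate 1 only peak at a gene end and 6 a peak found in both. In their domains the numbers were 24 and 25. The members lay at several levels of the pathway. Among the kinases and their adaptors, LATS2 had one of 3.82-fold (chromosome 13, 21060328 to 21060452), 1196 bp downstream of its start, with the nearest replicate 2 peak 42.3 kb away. STK3 (3.04-fold), STK4 (3.19-fold) and the scaffold gene SAV1 (3.34-fold) each had 1, and for SAV1 the nearest replicate 2 peak was 728 kb away. By −log10 p, LATS2 ranked 1927th of the 7681 members, and STK3, STK4 and SAV1 ranked 6914th, 5582nd and 5556th. TEAD1, a DNA-binding factor of the pathway, had 3 at the same gene end, of 3.07 to 3.59-fold, and 10 members in its domain against 3 peaks found in both. VGLL4, which competes with YAP for TEAD factors, had 1 of 3.63-fold at a gene end and a stronger one of 5.57-fold in its body (chromosome 3, 11600500 to 11600616). Among targets, ANKRD1 had 1 of 4.01-fold at 420 bp upstream of its start, 9.05 kb from a replicate 2 peak, and CCN1, a matricellular protein, 1 of 3.59-fold. NUAK2, a kinase gene, had 1 of 4.02-fold at 2.81 kb from a replicate 2 peak, and the stress gene GADD45A had 1 of 3.97-fold at 3.13 kb. All of these fold values lay between 3.04 and 5.57, and 16 of the 18 genes also had a peak found in both in their domain.

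In the TGF-beta list 12 of 25 genes had a replicate 1 only peak at a gene end and 2 a peak found in both, and 17 and 10 had one in their domains. Both receptor genes were among them. TGFBR1 had a member of 3.45-fold whose midpoint lay 99 bp downstream of its start (chromosome 9, 99104215 to 99104881), with the nearest replicate 2 peak 73.3 kb away. TGFBR2 had 1 of 3.36-fold at 820 bp downstream of its start, with the nearest replicate 2 peak 848 kb away. The TGFBR2 peak had the pair of fold and −log10 p shared by 408 members. Of the signal-carrying SMAD genes, SMAD2 (3.49-fold), SMAD3 (3.26-fold) and SMAD4 (3.66-fold) each had 1. For SMAD4 the nearest replicate 2 peak was 2012 kb away, while the domain of SMAD3 held 8 members, 13 peaks found in both and 15 replicate 2 peaks. The inhibitory SMAD6 (3.17-fold) and SMAD7 (3.10-fold) had 1 each, and SMURF2 had 4 within 3 kb of a gene end, of 3.16 to 3.69-fold and each within 2.16 kb of a replicate 2 peak. LTBP3, which tethers latent TGF-beta in the matrix, had 1 of 3.73-fold. Ranked by −log10 p among the 7681 members, LTBP3 was 1529th, TGFBR1 2388th, SMAD4 3430th, SMAD6 4514th and SMAD2 4885th. SMAD3 was 6562nd, TGFBR2 7295th and SMAD7 7525th. The 4 peaks of SMURF2 ran from 2837th to 7668th.

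Collagen and matrix genes had a replicate 1 only peak at 11 of 25 gene ends, and a peak found in both at 1. The strongest lay 391 bp upstream of the start of COL7A1, the collagen of anchoring fibrils (chromosome 3, 48595611 to 48595828, 4.60-fold, −log10 q 3.95), and its nearest replicate 2 peak was 2078 kb away. SPARC, which encodes a collagen-binding glycoprotein, had 1 of 3.79-fold 1.35 kb from a replicate 2 peak and another of 3.20-fold. COL16A1 had 1 of 3.67-fold. COL3A1, a fibrillar collagen of soft tissue, had 6 members within 14.8 kb (chromosome 2, 188969250 to 188984077). Their folds were 3.36, 3.66, 3.81, 3.36, 3.77 and 3.48, in genomic order, and the nearest replicate 2 peak was 146 to 160 kb from each. The domain of COL3A1 held no peak of replicate 2. Both of its peaks of 3.36-fold had the pair of fold and −log10 p shared by 408 members. Of the 15 laminin and basement membrane genes none had a member or a peak found in both at a gene end, and 5 had one in their domain, among them LAMA3 (4.52-fold), LAMA4 (4.37-fold), LAMB1 (3.90-fold) and NID2 (3.90-fold).

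Of 29 integrin and focal adhesion genes, 6 had a replicate 1 only peak at a gene end and 1 a peak found in both, with 18 and 15 in domains. ITGA5 had the strongest, of 3.98-fold, and TES, PARVA and ACTN1, which encode actin-linked adhesion proteins, had 3.59, 3.35 and 3.36-fold. ITGB6, an epithelial integrin chain, had none at a gene end but a member of 5.47-fold 8.01 kb upstream of its start (chromosome 2, 160208073 to 160208482), 0.454 kb from a replicate 2 peak. Among the other cell junction lists, 3 of 21 adherens junction, 4 of 19 desmosome and 0 of 26 tight junction and polarity genes had a member at a gene end, against 0, 2 and 2 with a peak found in both. The desmosomal plaque genes PKP3 and PKP4 had 3.88 and 3.61-fold, and EFNA1, an ephrin ligand counted with the adherens junction, 3.96-fold. PLEKHA7, an adherens junction adaptor, had a narrow member of 5.05-fold in its body. The polarity gene PARD3 had a member of 5.71-fold, 108 bp wide, in its body (chromosome 10, 34699099 to 34699206), 190 kb from a replicate 2 peak.

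Of 22 keratin and epithelial identity genes 3 had a replicate 1 only peak at a gene end and 2 a peak found in both. The peak of 4.35-fold at KRT18 (chromosome 12, 52945851 to 52946429, −log10 q 3.80) lay 18.4 kb from a replicate 2 peak. KRT19 and KRT80 had 3.42 and 3.38-fold. Of 26 mesenchymal genes 7 had one, among them TPM1 (3.88-fold), FAP (1 of 3.97 and 1 of 3.57-fold), TNC (3.36-fold) and TWIST2 (1 of 3.63 and 1 of 3.30-fold), and 5 had a peak found in both. The replicate 2 list had no peak in the domain of FAP, a surface protease of activated fibroblasts. Of single markers, the epithelial cadherin gene CDH1 had 1 member in its body (3.49-fold, 102 bp wide), the oestrogen receptor gene ESR1 had 1 in its body (3.63-fold), and VIM and FN1 had 3 each in their domains. EPCAM, PGR and ZEB1 had none, and none of these 7 genes had one at a gene end. These counts are of peaks and not of expression.

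Among 30 inflammatory and NF-kB genes, 8 had a replicate 1 only peak at a gene end and 6 a peak found in both. TNFAIP3, an inhibitor of NF-kB signalling, had 1 of 3.90-fold and CCL2, a chemokine gene, 1 of 3.85-fold, 1.52 kb from a replicate 2 peak. CCL20 had 1 of 3.75-fold and TNFRSF1A 2, of 3.40 and 3.05-fold. Of 26 endometrial factors 6 had one at a gene end and 4 a peak found in both. All 6 lacked a peak found in both in their domain. For HOXA9 and HOXA10 the domain does not show what lies at the gene, because it missed even their own gene-end members. The same peak of 2.95-fold (chromosome 7, 27168298 to 27168515) counted for both of these genes. NR2F2, an orphan nuclear receptor of the uterine stroma, had 3 at a gene end, of 3.33 to 3.84-fold. These lay 0.113 to 4.16 kb from a replicate 2 peak. In the domain of NR2F2 replicate 2 had 1 peak, no peak was found in both, and members numbered 13. A run of 6 of these 13 spanned 12.0 kb (chromosome 15, 96264454 to 96276494) with folds of 3.37 to 3.77, and each lay 51.3 to 62.2 kb from a replicate 2 peak. HOXA9 and HOXA11, homeobox genes of the reproductive tract, had 3.24 and 3.10-fold, 1.34 and 0.114 kb from a replicate 2 peak. HAND2, a progesterone-responsive factor of the stroma, had 3.38-fold, and KLF5 3.36-fold. By −log10 p these 2 ranked 6217th and 7154th of the 7681 members, and HOXA9 and HOXA11 2617th and 3598th. The KLF5 peak had the pair of fold and −log10 p shared by 408 members.

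SWI/SNF subunit genes had a peak found in both at 1 of 28 gene ends and a member at 4: PHF10 (3.48-fold), SMARCA4 (3.24-fold), ARID2 (3.29-fold) and SMARCA2 (3.28-fold). The peak at SMARCA4, the gene of BRG1 itself, lay 313 bp downstream of its start (chromosome 19, 10961182 to 10961503). With a −log10 p of 4.40 and a −log10 q of 1.44 it ranked 6915th of the 7681 by −log10 p, and the nearest replicate 2 peak was 181 kb away. The other 3 ranked 5305th, 7597th and 7629th, so all 4 were among the weaker members. Other chromatin regulators had 2 of 25 (8.0%), among them EP300 (3.54-fold), and AP-1 factors 1 of 17 (5.88%), which was FOSL1 (3.76-fold). Both shares were near the 5.45% over all genes on the arms. Neither list had a gene-end peak found in both.

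Receptor tyrosine kinases and their ligands had members at 5 of 28 gene ends and peaks found in both at 0; EPHB4 (3.63-fold), ROR1 (3.49-fold) and MET (3.50 and 3.40-fold) were among them. The same peak of 3.23-fold counted for PDGFRB in this list and for its neighbour CSF1R in the immune list. Target genes of p53 had 4 of 20 (GADD45A, BAX, PHLDA3 and DDB2), cell cycle genes 2 of 28 (CCND1 3.45-fold, CDK1 3.36-fold) and immediate early and stress genes 2 of 27 (KLF6 3.80-fold, HSPA5 3.53-fold). Peaks found in both lay at 3, 0 and 1 gene ends of these 3 lists. The member shares of the cell cycle list (7.14%) and the immediate early list (7.41%) were near the 5.45% over all genes. Of the lists of other cell types, stromal and decidual markers had 6 of 18, which include COL3A1, NR2F2, LUM and DCN, immune markers 2 of 22, neuronal genes 2 of 22, endothelial markers 1 of 18 and hepatocyte genes 0 of 23. Peaks found in both lay at 2, 0, 1, 0 and 0 gene ends of these lists in the same order. Member shares were 9.09% in the immune and in the neuronal list and 5.56% in the endothelial list, against 5.45% over all genes. Of the stromal genes, COL3A1, LUM and DCN were also counted in the collagen list, and NR2F2 and HAND2 among the endometrial factors. No gene of the steroid list (24 genes) or the ribosomal protein list (30 genes) had either kind of peak at a gene end.

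Of all members, the highest −log10 p, 14.8, belonged to a peak of 7.08-fold in the body of TINAG, a basement membrane glycoprotein gene (chromosome 6, 54335911 to 54336114), 44.7 kb from a replicate 2 peak. Next came a peak of 3.99-fold and 102 bp in DCC, a netrin receptor gene (chromosome 18, 52792762 to 52792863), with none in replicate 2 within 1984 kb, and a peak of 5.92-fold in ATXN10, 0.158 kb from one. At gene ends the highest were beside TNFSF8, a cytokine gene (−log10 p 9.29), PDK1, a kinase that restrains pyruvate dehydrogenase (5.26-fold, 9.24), DHX32 (4.39-fold, 9.12), MCC (4.84-fold, 8.54) and SH3TC2 (4.74-fold, 8.12). The peak at JADE1 (4.84-fold) lay 0.099 kb from a replicate 2 peak, while that at MCC lay 323 kb from one. Of the 12 highest at gene ends, 8 were under 140 bp wide.

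Joining members within 10 kb of each other gave 6282 groups, of which 5254 held a single peak and 31 held 5 or more. The largest, of 8 peaks, and another of 6 had POTEB3 as nearest gene, on chromosome 15 beyond the edge of the dropped window; POTEB3 also led the count per domain, with 28 members. A group of 7 spanned 22.4 kb with HOXA3 as nearest gene (chromosome 7, 27114112 to 27136462). Their folds ran from 3.18 to 3.40, and each lay at least 2.63 kb from a replicate 2 peak. After POTEB3, the domains with most members were those of TNIK (15), PALLD (14), and MAML2, NR2F2, PRKCH and TENM3 (13 each), and all but NR2F2 also held 2 or more peaks found in both. Besides NR2F2, domains with no peak found in both and many members, chosen after their values were seen, were those of GABRG3 (10), TSC22D2 (9) and ANO6 (8). Those of ABHD2, FNDC3B, NPAS3 and VEGFC held 7 each. These domains ran from 196 kb (TSC22D2) to 978 kb (NPAS3) in length. Replicate 2 had no peak at all in those of TSC22D2, ABHD2, FNDC3B and NPAS3, 1 each in those of ANO6 and VEGFC, and 5 in that of GABRG3.

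Members beyond 1 Mb of any protein-coding gene numbered 139 (1.81%; interval 1.53 to 2.13%), against 19 peaks found in both (0.512%) and 56 replicate 2 only peaks (4.31%). The odds ratio against peaks found in both was 3.58 (Fisher's exact test, adjusted p = 9.05e-09). Of the 139, 114 lay on chromosomes 3, 6, 8 and 11, for which the rule drops no window, 52 of them on chromosome 6 and 36 on chromosome 11. On the other 18 chromosomes the share was 0.449% of members (25 of 5567; interval 0.304 to 0.662%) and 0.216% of peaks found in both (6 of 2784; 0.0988 to 0.469%). It was 0.214% of replicate 2 only peaks there (2 of 936; 0.0586 to 0.776%), below the members' share, whereas over all chromosomes it was above it. These 3 intervals overlap.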

How the data were processed

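BRG1 ChIP-seq of wild-type 12Z cells was analysed from the deposited broad peak lists of 2 replicates and a series-wide overlap list. The input library has no list used here. For build GRCh38.p12, the submitters' processing notes name MACS2, Bowtie2, cutadapt, Trim Galore, Picard, SAMtools and bedtools. Versions and calling options, not given in the sources used here, could change which peaks pass. The authors' fold enrichment is a ratio of ChIP signal to background. The deposited lists also give the −log10 of the p-value and q-value of each peak, and a score, which was not used. The lists hold no read counts, so depth is unknown and intervals cover only the number of peaks.

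The members and gene lists were chosen with earlier results of these data known. Analyses used Python 3.11.15, numpy 2.4.6, scipy 1.17.1, pandas 2.3.3, statsmodels 0.14.6 and matplotlib 3.10.9. Positions are as in the peak files, with the first base counted as 1. Gene positions came from RefSeq GRCh38.p14 and served only for neighbourhoods and names. That gene table has no strand, so gene ends include both ends. Location shares were compared by Fisher's exact test, two-sided, with Benjamini-Hochberg adjustment over 6 comparisons and a threshold of 0.05; shares carry Wilson 95% intervals. The calculations were tested on simulated data. The 26 gene lists held 638 entries, of which 628 matched protein-coding genes of chromosomes 1 to 22. Genes were named by a rule: by −log10 p, the 12 highest members at gene ends, 10 in gene bodies and 8 elsewhere, the 10 genes with the most members in their domain, up to 4 genes of each list and 7 single markers. Not every gene the rule selects is described. Further list genes (STK3, STK4, SAV1, TEAD1, CCN1, TGFBR2, KLF5, SMAD2, SMAD3, SMAD6, SMAD7) were named after their values were seen. Alternatives varied the overlap, strength, near misses, joining, chromosomes, dropped windows, gene-end window, reach and position of a peak.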

Additional observations from a re-analysis of the deposited data

Results flagged for a closer look

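Chromosome X was outside the selection of members. It held 82 replicate 1 peaks, of which 74 (90.2%) overlapped no replicate 2 peak, with a median fold of 3.54 and a median −log10 p of 4.79. Replicate 2 had 17 peaks there. The 74 peaks stood out only because they lie in data that no comparison used, and no control library gave a list to set them against.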

How the results depend on the processing

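The values below are odds ratios of members against the named class (Fisher's exact test) unless said otherwise. Direction was not reversed for either comparison called in the report in any setting run. The higher share at gene ends than in peaks found in both kept its call in 11 of 12 settings, the exception being the stronger peaks of each list. There the odds ratio was 1.19 (Fisher's exact test, adjusted p = 0.213). Strata of peak width and of chromosome, chosen after seeing the data, gave Mantel-Haenszel odds ratios of 1.33 and 1.55. Against replicate 2 only peaks, the gene-end difference passed the test with dropped windows widened by 2 Mb (0.82), with windows of 1 kb (0.74) and within 1 kb of a transcription start (0.70, chosen after seeing the data). It did not pass, and its direction turned, with 50% of both peaks (1.08), and it was 0.999 among stronger peaks. The gene-body call against replicate 2 only peaks was lost with 50% of both peaks (1.05), among stronger peaks (1.16) and with peaks joined (1.12). With a reach of 1 Mb in place of 100 kb, the share far from genes differed from both classes (3.58 against peaks found in both, 0.41 against replicate 2 only peaks). Most peaks that far from genes lay on chromosomes 3, 6, 8 and 11, which have no dropped window. These held 114 of the 139 members, 13 of the 19 peaks found in both and 54 of the 56 replicate 2 only peaks. On the other 18 chromosomes the shares were 0.449% of members, 0.216% of peaks found in both and 0.214% of replicate 2 only peaks, with overlapping intervals. The direction against replicate 2 only peaks was the opposite there. Genes with a member at a gene end numbered 299 among stronger peaks and 554 with windows of 1 kb, and genes with one in their domain 1718 among stronger peaks. For each of these, the cause was not tested.

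Leaving out a replicate was not run, because the members are defined by both lists. No paired analysis was possible because only 1 group of immunoprecipitated libraries was compared and no groups share replicate numbers. The lists hold no reads, so a member cannot be told apart from a site just under the calling threshold in replicate 2.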
